A study of Mus musculus with 40 samples.

Results

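The HoxA genes Hoxa2, Hoxa3, Hoxa4, Hoxa5, Hoxa6, Hoxa7, Hoxa9, Hoxa10 and Hoxa11 were followed through peak lists of 2 histone marks, H3K27me3 and H3K4me3, in cultured mouse oligodendrocyte progenitor cells (OPCs). The members were chosen by name, as 9 of the 55450 genes of the annotation, and their values came from peaks at their promoters and along the cluster. A promoter reached 2000 bp upstream and 1000 bp downstream of every annotated transcript start, and its value was the percent of those base pairs that lay under a peak. All 9 members had a peak of each mark in at least 1 library, so none was lost to a filter on low values.

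The study asked how the histone mutation H3.3 K27M, which is found in diffuse midline glioma, changes OPCs of the brainstem and the telencephalon. K27M mice carried a conditional H3-3a LSL-K27M allele and a GFAP-Cre transgene (AMGFAP-Cre in the labels, hGFAP-Cre in the study's methods), which acts in neural stem and progenitor cells. Control mice were littermates. The study's single-cell methods describe littermate controls as carrying the LSL cassette on an allele without Cre, and whether this held for each animal of these cultures is not given in the sources used here. All animals were on an FVB background. Litters aged postnatal day 5 to 7 were pooled by region and genotype, so that 1 culture stands for several animals of either sex. PDGFRa+ OPCs were purified by immunopanning, grown in proliferation medium and harvested without differentiation. The telencephalon samples carry the word cortex in their labels, while the protocol describes dorsal telencephalon, which also took in corpus callosum and hippocampus. There were 4 groups per mark, which were brainstem control and brainstem K27M (cultures 59 and 61) and telencephalon control and telencephalon K27M (cultures 59, 60 and 61). Each culture of a region and genotype gave 1 library per mark, 20 libraries in all, and p-values below measure the spread between these cultures. Culture numbers 59 and 61 recur in all 4 groups. The region tests did not use these shared numbers, except in the replicate block given at the end.

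The H3K27me3 libraries held between 4739 and 64808 peaks over 13.3 to 152 Mb, and the H3K4me3 libraries between 20961 and 31200 peaks over 28.8 to 48.6 Mb. Read depth could not be obtained from the peak lists. All 5 OPC markers tested (Pdgfra, Cspg4, Olig1, Olig2 and Sox10) had H3K4me3 peaks at their promoters and no H3K27me3 peak in every library, while the microglial genes Aif1 and Csf1r and the endothelial genes Pecam1 and Cdh5 had no peak of either mark. P2ry12 (microglia) and Cldn5 (endothelium) had H3K4me3 peaks in some libraries, and the neuronal genes Rbfox3, Snap25 and Syt1 had them in all 10. Of 4 astrocyte genes, Slc1a3 had them in every library and Gfap, Aldh1l1 and Aqp4 in some. Among forebrain genes, Emx2 separated the control regions, with a mean H3K27me3 cover of 100% in brainstem controls and 9.01% in telencephalon controls, and a mean H3K4me3 cover of 19.2% and 74.1%. Emx1 (H3K27me3 100% and 85.4%) and Lhx2 (59.3% and 56.1%) did not separate them. Telencephalon controls 60 and 61 stood apart for H3K4me3, since their highest fold enrichment over input was 157 and 104, against 23.4 to 64.7 in the other 8 libraries. At the other end, telencephalon control 59 had the lowest median H3K4me3 fold enrichment (3.57) and the fewest base pairs under peaks (28.8 Mb). Telencephalon K27M 59 had the next lowest median, 4.98. In bulk peak lists, a mark on fewer cells and less of it per cell cannot be told apart.

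Hox genes encode homeodomain transcription factors that give cells a position along the body axis, and they are arranged in clusters in which genes at one end are used far forward, up to the hindbrain, and genes at the other end further back. The forebrain lies in front of the domain of Hox expression. H3K27me3, which Polycomb repressive complex 2 deposits, covers silent Hox genes as broad domains, H3K4me3 marks promoters that are active or poised, and promoters that carry both marks are called bivalent. K27M histone is known to inhibit the enzyme of that complex.

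The cluster lies on chromosome 6 (mm10), with the members on the minus strand, so that a higher coordinate is further toward Hoxa11, the most posterior member. Measured from the Hoxa2 start site (gene 52162417 to 52164831), start sites followed at 26.92 kb for Hoxa4, 39.76 kb for Hoxa5, 43.89 kb for Hoxa6 and 48.51 kb for the most upstream start of Hoxa3. Those of Hoxa7, Hoxa9, Hoxa10 and Hoxa11 lay at 57.02, 66.26, 76.02 and 80.98 kb. The annotated Hoxa3 gene (52169062 to 52213336) overlaps Hoxa4, Hoxa5 and Hoxa6, so peaks there are shared between genes, and neighbouring promoter windows also overlap. The cluster region was taken with 10000 bp on either side, 52152417 to 52255810, or 103.4 kb.

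Promoter sequences of 4 members are given because these genes bordered the edge of the H3K27me3 domain or differed in H3K4me3 between the regions. They are RefSeq promoters of GRCm38.p6 (mm10), from 250 bases before to 50 after the start and written 5′ to 3′ along the gene, and 8 of the 9 members had at least 1 entry, Hoxa4 being the other. Capitals mark the match to a searched motif.
Hoxa2 promoter, chr6:52164782-52165081, minus strand: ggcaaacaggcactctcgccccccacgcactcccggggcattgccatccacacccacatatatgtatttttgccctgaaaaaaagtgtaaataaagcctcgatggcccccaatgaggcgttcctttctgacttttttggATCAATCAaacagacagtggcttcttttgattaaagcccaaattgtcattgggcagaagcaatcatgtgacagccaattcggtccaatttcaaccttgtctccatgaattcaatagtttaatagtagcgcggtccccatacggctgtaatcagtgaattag
Hoxa5 promoter, chr6:52204538-52204837, minus strand: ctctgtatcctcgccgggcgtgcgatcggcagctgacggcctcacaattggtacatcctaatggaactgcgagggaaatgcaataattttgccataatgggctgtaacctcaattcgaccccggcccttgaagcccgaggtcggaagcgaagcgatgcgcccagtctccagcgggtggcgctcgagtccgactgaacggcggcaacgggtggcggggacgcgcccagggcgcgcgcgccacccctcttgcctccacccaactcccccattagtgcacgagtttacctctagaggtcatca
Hoxa6 promoter, chr6:52208623-52208922, minus strand: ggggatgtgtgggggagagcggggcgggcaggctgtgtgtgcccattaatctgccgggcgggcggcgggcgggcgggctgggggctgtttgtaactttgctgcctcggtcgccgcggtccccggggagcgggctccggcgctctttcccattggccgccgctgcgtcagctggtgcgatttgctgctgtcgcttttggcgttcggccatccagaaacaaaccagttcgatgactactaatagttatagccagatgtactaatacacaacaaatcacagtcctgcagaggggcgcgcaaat
Hoxa7 promoter, chr6:52218524-52218823, minus strand: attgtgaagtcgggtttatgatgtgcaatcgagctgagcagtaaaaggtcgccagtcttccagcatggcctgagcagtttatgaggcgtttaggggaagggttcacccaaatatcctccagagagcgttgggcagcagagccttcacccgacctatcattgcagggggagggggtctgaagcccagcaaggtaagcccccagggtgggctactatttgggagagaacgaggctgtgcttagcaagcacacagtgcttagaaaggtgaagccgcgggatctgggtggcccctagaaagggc
The motifs were searched on both strands and were AGGGGGC (a core of the CTCF motif), TGATNNAT (a PBX-HOX site) and the retinoic acid response element DR5. In the RefSeq promoters of the members, the Hoxa2 promoter held 1 TGATNNAT match, on the opposite strand and 111 bases upstream of the start, where it reads ATCAATCA. One of the Hoxa10 promoters held 1 AGGGGGC match. Of 32544 RefSeq promoters of the same length, 10.7% held AGGGGGC, 8.79% TGATNNAT and 0.0983% DR5, and these matches are letters only, not measured binding. The Hoxa5 and Hoxa6 promoters held 29 and 26 CpG pairs, against 9 in each of Hoxa2 and Hoxa7 and a median of 7 over all promoters. The RefSeq start of Hoxa7 used here lies inside the gene as the annotation of the peaks draws it. Its sequence and CpG count therefore do not describe the most upstream Hoxa7 start, at 52221854.

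Along the cluster, H3K27me3 covered the entire region in telencephalon-derived cultures and stopped within it in brainstem-derived cultures. Of the 103.4 kb, H3K27me3 peaks covered 99.1%, 100% and 100% in telencephalon controls 59, 60 and 61 and 100% in each of the 3 telencephalon K27M cultures. Brainstem control cultures 59 and 61 had 72.5% and 46.8% under peaks, and brainstem K27M cultures 59 and 61 had 71.6% and 93.9%. The brainstem libraries were thus all below the telencephalon libraries, with group means of 59.6% ± 18.1 (SD, n = 2) in brainstem controls and 99.7% ± 0.499 (SD, n = 3) in telencephalon controls.

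In each library 1 long peak made up most of this cover. It was 128.5 and 111.7 kb long in the brainstem controls, 131.6 and 166.9 kb in brainstem K27M, 121.6, 191.8 and 182.9 kb in the telencephalon controls and 132.4, 178.6 and 155.4 kb in telencephalon K27M. It ranked between the 2nd and the 6th longest H3K27me3 peak of its library in all 10 libraries. Since it ran past Hoxa11 in every library, the libraries differed within the cluster at its anterior edge. In all 6 telencephalon libraries that edge lay beyond Hoxa2, at positions from -5.67 to -23.2 kb, where a negative position is past the Hoxa2 start site on the side away from Hoxa11.

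The brainstem edges each lay at another place. In control 59 the long peak began 40.2 kb from the Hoxa2 start site, between the Hoxa5 and Hoxa6 genes. In control 61 it began at 57.14 kb, between the Hoxa7 and Hoxa9 genes, with an adjoining peak of lower fold enrichment (6.58) from 45.5 to 56.7 kb. The K27M library of culture 59 had its edge at 33.42 kb, between Hoxa4 and Hoxa5, and that of culture 61 at -2.25 kb, inside the Hoxa2 gene. Compared within a culture, the long peak of K27M therefore began further anterior than that of the control in both brainstem cultures. With the shorter peaks included, this order held in culture 61 only. The most anterior H3K27me3 peak of the region began at 8.15 kb in control 59 and at 10.1 kb in K27M 59. In culture 61 it began at 21.4 kb in control and at -11.5 kb in K27M. With 2 matched brainstem cultures an exact sign-flip test could not pass 0.05, and the difference between genotypes in edge position was not tested.

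Beyond the edge, brainstem libraries held H3K27me3 peaks that were shorter and had a lower fold enrichment. Control 59 had one from 8.15 to 26.8 kb over the Hoxa3 body and Hoxa4, with a fold enrichment of 3.73. It had another from 27.5 to 32.3 kb (fold enrichment 2.72) and a short one from 33.1 to 33.9 kb (2.50). K27M 59 had 7 short peaks between 10.1 and 32.4 kb, with fold enrichments of 2.39 to 2.96. Control 61 had a single short peak at 21.4 to 21.8 kb and another 2 peaks between 41.4 and 45.0 kb, and K27M 61 had 3 short peaks from -11.5 to -6.71 kb.

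The sequences at the edges of the brainstem controls are shown because they mark the places where the long peak began. In control 61 the adjoining H3K27me3 peak ended at 56.7 kb. This edge therefore borders a short gap between peaks and not the end of H3K27me3. Each sequence holds 100 bases outside and 200 bases inside the long peak (GRCm38.p6 genome, mm10), with a motif match in capitals.
Domain edge, brainstem control culture 59, chr6:52204927-52205226, plus strand: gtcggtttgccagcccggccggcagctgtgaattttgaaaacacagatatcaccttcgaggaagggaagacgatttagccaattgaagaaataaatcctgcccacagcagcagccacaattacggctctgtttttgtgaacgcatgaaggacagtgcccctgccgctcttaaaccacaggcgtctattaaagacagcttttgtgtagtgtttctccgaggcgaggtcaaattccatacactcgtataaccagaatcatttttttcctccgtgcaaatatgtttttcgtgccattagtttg
Domain edge, brainstem control culture 61, chr6:52221867-52222166, plus strand: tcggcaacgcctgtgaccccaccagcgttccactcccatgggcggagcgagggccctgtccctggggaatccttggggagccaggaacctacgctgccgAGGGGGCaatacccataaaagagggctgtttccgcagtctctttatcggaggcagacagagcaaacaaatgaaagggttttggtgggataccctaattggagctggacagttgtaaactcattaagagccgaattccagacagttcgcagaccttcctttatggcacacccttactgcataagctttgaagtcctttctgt
The edge of control 61 lay by an AGGGGGC match, in a window just upstream of the Hoxa7 start at 52221854. The edge window of control 59 held none of the 3 motifs. The windows of the same size at the K27M edges of cultures 59 and 61 also held none, so a match was found at 1 of the 4 brainstem edges.

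**Figure D1:**
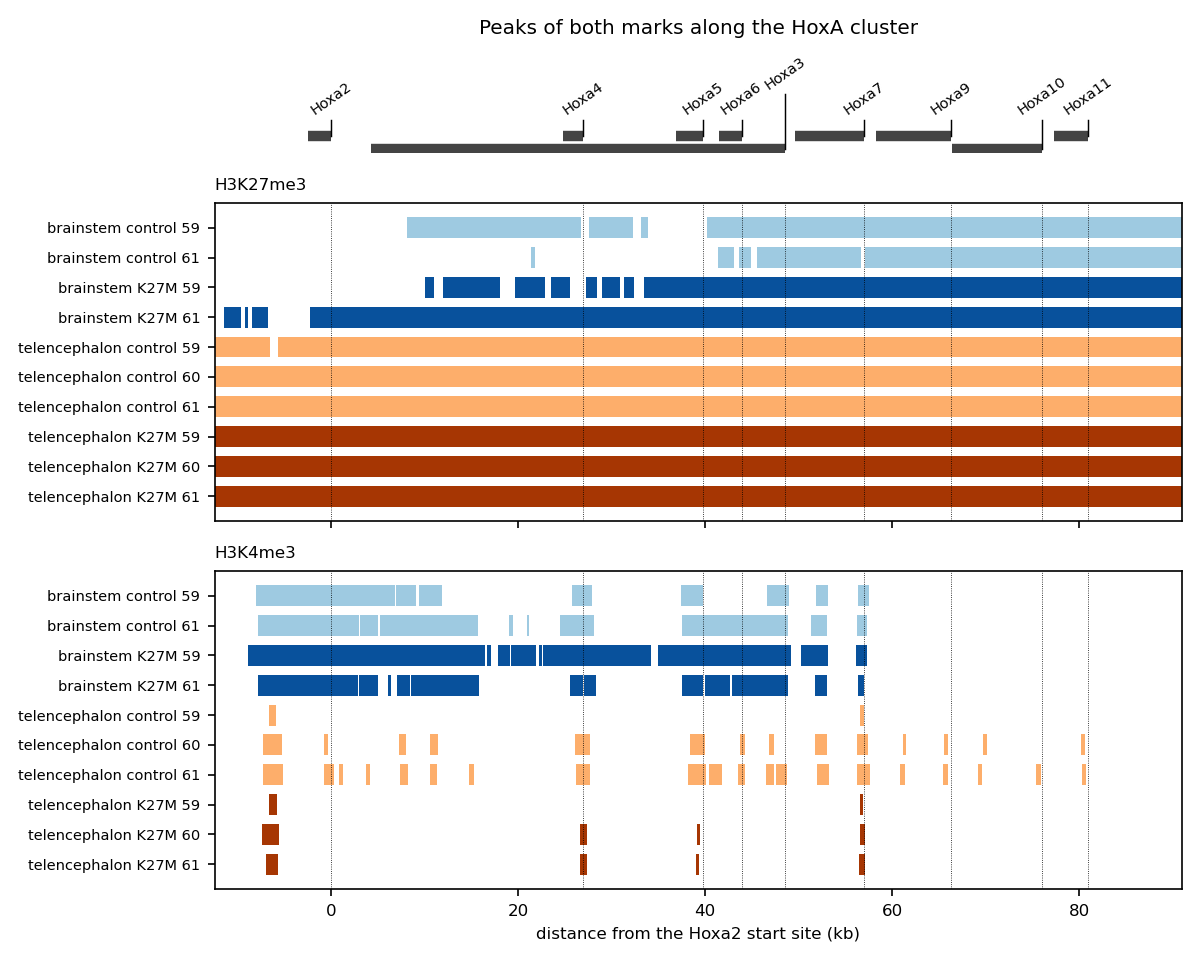
Peaks along the cluster in each of the 20 libraries, H3K27me3 above and H3K4me3 below, by distance in kb from the Hoxa2 start site. Gray bars are the genes, dotted lines their start sites and colored bars the peaks. H3K27me3 fills the telencephalon libraries, and its long peak begins between 33.42 and 57.14 kb in 3 of 4 brainstem libraries. H3K4me3 peaks fill much of the anterior side in the brainstem.

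At the promoters, the posterior members Hoxa9, Hoxa10 and Hoxa11 were fully covered by H3K27me3 in all 10 libraries. Hoxa9 is known for its part in hematopoietic cells and leukemia, Hoxa10 for the patterning of the uterus and hindlimb, and Hoxa11 for the forearm, kidney and uterus. In the brainstem, these 3 of the 9 members were fully covered in every library, against 3.94% of the 14152 genes that had an H3K27me3 promoter peak in at least 1 library. An H3K27me3 peak of any extent lay at 7 of 9 members in every brainstem library, against 20.1% of genes. In the telencephalon all 9 members were fully covered in all 6 libraries, against 2.99% of genes, where 13.5% of genes had a peak in every library.

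Hoxa2, which patterns the hindbrain and the second branchial arch, had the largest difference between regions. Its promoter (3000 bp) was covered to 0%, 0%, 0% and 100% in brainstem control 59, control 61, K27M 59 and K27M 61, and to 100% in every telencephalon library. Among controls the regions did not overlap, while brainstem K27M 61 was as covered as the telencephalon.

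Hoxa4 and Hoxa5 also varied widely among brainstem cultures. Hoxa4, a gene of the caudal hindbrain and neck level, was covered to 73.8% and 0% in the brainstem controls and to 41.4% and 100% in brainstem K27M. Hoxa5, which is needed for the development of the respiratory tract, was covered to 52% and 12.5% in the brainstem controls and to 100% in both brainstem K27M cultures. Both brainstem controls were below all telencephalon controls at either gene, with means of 36.9% ± 52.2 (SD, n = 2) at Hoxa4 and 32.3% ± 27.95 at Hoxa5.

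At Hoxa3, Hoxa6 and Hoxa7, brainstem control 59 was as fully covered as the telencephalon. Hoxa3, which is required for the thymus and parathyroid glands, had 100% and 49.7% in the brainstem controls and 76.9% and 100% in brainstem K27M. Hoxa6 and Hoxa7, which pattern the thoracic skeleton, were covered to 63.4% and 93.7% in brainstem control 61 and fully in the other 3 brainstem libraries. The Hoxa3 promoters form 2 separate stretches, and the one near Hoxa6 and Hoxa7 (52212116 to 52215336) was fully covered in all 4 brainstem libraries. The one inside the gene body, near Hoxa4 (52182856 to 52186874), had 100%, 9.33%, 58.4% and 100% in control 59, control 61, K27M 59 and K27M 61.

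The test between control regions was an exact two-sided permutation test of the 2 brainstem and 3 telencephalon cultures, whose 10 splits allow no p under 0.1, so the calls rest on whether the groups overlapped. The groups did not overlap, with the telencephalon higher, at 3 of 9 members (Hoxa2, Hoxa4 and Hoxa5), against 0.879% of 14106 genes. The mean differences were 100 percentage points at Hoxa2, 63.1 at Hoxa4 and 67.7 at Hoxa5, each with the smallest exact p of 0.1 and an adjusted p of 1 over all genes. Hoxa3 (25.2 points), Hoxa6 (18.3) and Hoxa7 (3.17) had an exact p of 0.4. No member was higher in the brainstem, where 2.45% of genes were. The median difference over the 9 members was 18.3 points and that over all genes tested 0.

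The 3 members depended on which brainstem culture was used. Without brainstem culture 59, which leaves 1 brainstem control against 3 telencephalon controls, 6 members (Hoxa2 to Hoxa7) were higher in the telencephalon with no overlap. Counting a peak at the promoter in place of the percent covered left only Hoxa2.

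With both genotypes together, 0 of 9 members were separated between regions, against 0.226% of genes with the telencephalon higher. None was higher in the brainstem either, against 0.544%. All 9 members were fully covered in brainstem K27M 61, whose long peak reached Hoxa2, so this library was level with the telencephalon. The exact permutation test within genotype (100 arrangements, smallest p 0.01) gave 0.04 for Hoxa2 (75.0 points) and Hoxa4 (46.2 points), 0.1 for Hoxa5 (33.9 points) and 0.16 for Hoxa3 (18.4 points), with an adjusted p of 1 for each. Without brainstem culture 61, Hoxa2 and Hoxa4 were separated. In the K27M cultures alone, 0 of 9 members were higher in the telencephalon, against 2.16% of genes, and 0 of 9 in the brainstem, against 11.2%.

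**Figure D2:**
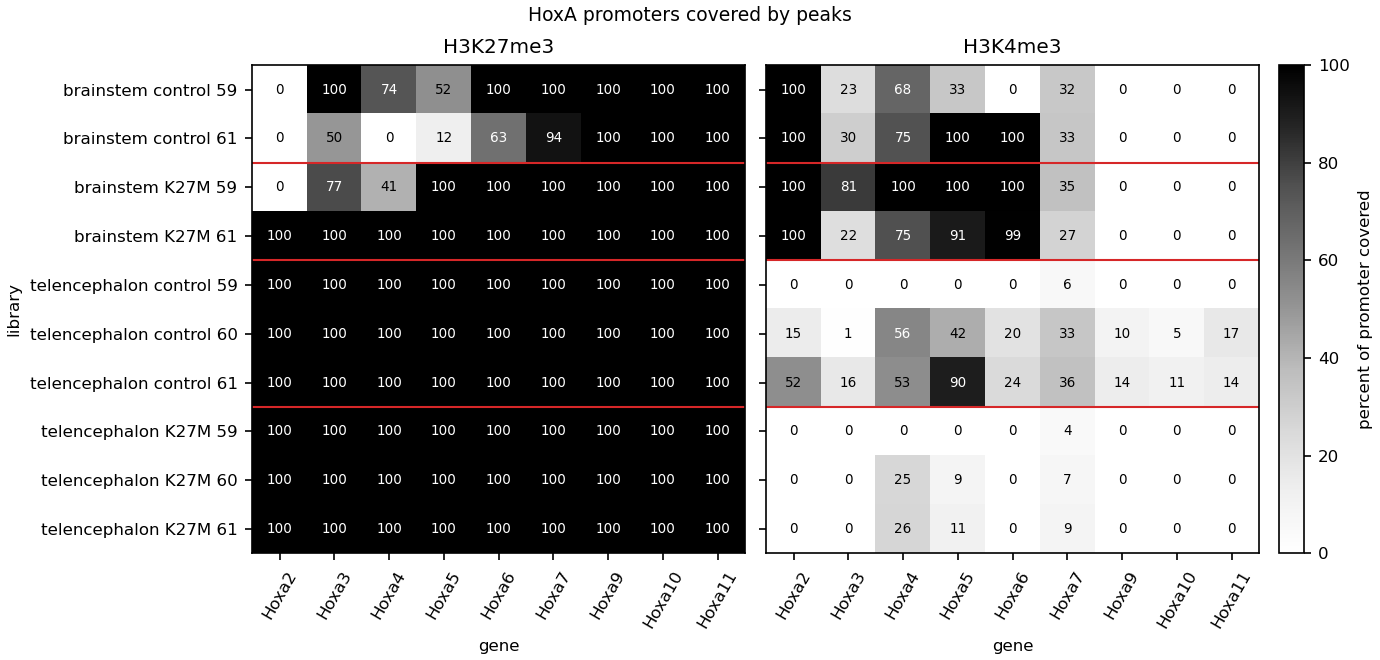
Percent of each HoxA promoter under H3K27me3 peaks (left) and H3K4me3 peaks (right), with 1 line per library and 1 column per gene, from white at 0 to black at 100 and the rounded value in each cell. Red lines separate the groups, and the 6 telencephalon libraries are at 100 for H3K27me3 at all 9 genes.

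In H3K4me3, the brainstem had more of the region covered than the telencephalon, and in brainstem controls most of this cover lay outside H3K27me3 peaks. Its peaks covered 27.9% and 40.3% of the region in brainstem controls, 57.7% and 35.9% in brainstem K27M, 1.19%, 12.2% and 18.1% in telencephalon controls and 1.04%, 3.26% and 2.92% in telencephalon K27M. All brainstem libraries were thus above all telencephalon libraries, with means of 34.1% ± 8.77 (SD, n = 2) and 10.5% ± 8.58 (SD, n = 3) in the controls. The longest H3K4me3 peak in the region was 10.7 to 25.4 kb long in the brainstem and 0.759 to 2.07 kb in the telencephalon. It contained the Hoxa2 start site in 3 of the 4 brainstem libraries, and in control 61 it lay over Hoxa5 and Hoxa6, from 37.5 to 48.8 kb.

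The Hoxa2 promoter was covered by H3K4me3 to 100% in all 4 brainstem libraries. In the telencephalon it had 0%, 14.8% and 52.5% in controls 59, 60 and 61 and 0% in all 3 K27M libraries. Hoxa2 was the 1 member of 9 that was fully covered in every brainstem library, against 1.18% of 20000 genes with an H3K4me3 promoter peak in at least 1 library. The highest fold enrichment of its peaks was 21.8, 17.3, 29.0 and 16.7 in brainstem control 59, control 61, K27M 59 and K27M 61, and 4.94 and 12.3 in telencephalon controls 60 and 61. The regions therefore did not overlap in cover or in the highest fold enrichment of a peak touching this promoter. The brainstem peaks here began between -8.88 and -7.76 kb. They thus spanned the site of a separate telencephalon peak outside the Hoxa2 promoter. That peak had fold enrichments of 3.72, 86.5 and 46.2 in telencephalon controls 59, 60 and 61. Where along the brainstem peaks the enrichment was highest was not measured here, so height at Hoxa2 itself was not compared.

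Hoxa3 and Hoxa4 were also separated by region. Hoxa3 had 22.7% and 30.0% of its promoters covered in brainstem controls, 81.4% and 21.9% in brainstem K27M, 0%, 0.87% and 16.5% in telencephalon controls and 0% in telencephalon K27M. Hoxa4 had 67.6% and 74.7% in brainstem controls, 100% and 75.4% in brainstem K27M, 0%, 55.5% and 53.1% in telencephalon controls and 0%, 25.5% and 26.4% in telencephalon K27M. The highest fold enrichment of peaks at Hoxa4 followed another order. It was 19.7 and 8.76 in brainstem controls against 52.1 and 32.9 in telencephalon controls 60 and 61, the libraries with the highest fold enrichments in the series.

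Hoxa5 and Hoxa6 overlapped between regions because brainstem control 59 was low. Hoxa5 was covered to 32.8% and 100% in brainstem controls, 100% and 91.0% in brainstem K27M, 0%, 42.4% and 89.9% in telencephalon controls and 0%, 9.17% and 11% in telencephalon K27M. Hoxa6 had no peak in brainstem control 59 and was covered to 100%, 100% and 99.3% in the other 3 brainstem libraries. It had 0%, 20.0% and 23.8% in telencephalon controls and no peak in telencephalon K27M.

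A peak of any extent lay at 5 of 9 members in every brainstem library, against 84% of genes, and at 1 of 9 in every telencephalon library, against 80.4%. The latter was Hoxa7, the 1 member with an H3K4me3 peak in all 10 libraries. Its promoters were covered to 32.5% and 33.2% in brainstem controls, 35.2% and 27.5% in brainstem K27M, 5.59%, 33.4% and 35.9% in telencephalon controls and 4.32%, 7.28% and 8.67% in telencephalon K27M. Telencephalon controls 60 and 61 were at the brainstem level, and the other 4 telencephalon libraries were below it.

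The posterior members Hoxa9, Hoxa10 and Hoxa11 had no H3K4me3 peak in any brainstem library, as 3 of 9 members against 6.22% of genes. Their H3K4me3 peaks came from telencephalon controls 60 and 61 alone, where they covered 9.84% and 14.4% of Hoxa9, 5.29% and 11.4% of Hoxa10 and 16.6% and 14.0% of Hoxa11. Fold enrichments were 3.82 to 6.98 there.

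Between control regions, the brainstem was higher in H3K4me3 with no overlap at 3 of 9 members (Hoxa2, Hoxa3 and Hoxa4), against 15.8% of 19687 genes. The differences, telencephalon minus brainstem, were -77.6 points at Hoxa2, -20.6 at Hoxa3 and -34.9 at Hoxa4, with exact permutation p of 0.1, 0.2 and 0.3 and adjusted p of 1. No member was higher in the telencephalon with no overlap, against 0.97% of genes. Leaving out brainstem culture 59, or telencephalon cultures 60 and 61 together, each of which leaves 1 library in that group, gave 5 members, and counting a peak at the promoter in place of percent covered lowered it to 0.

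With both genotypes together the same 3 members were higher in the brainstem with no overlap, against 0.755% of genes, and 0 of 9 were higher in the telencephalon, against 0.175%. The differences were -88.8 points at Hoxa2, -36.1 at Hoxa3 and -52.7 at Hoxa4, each at the smallest exact p of 0.01 and each with an adjusted p of 1 over all genes. Hoxa6 (-67.5 points, exact p = 0.04), Hoxa5 (-55.5, p = 0.08) and Hoxa7 (-16.2, p = 0.08) were lower in the telencephalon on average, and their groups overlapped. No gene of the 20000 passed an adjusted p of 0.05 by this exact test, while 412 had an unadjusted p under 0.05. Counting a peak at the promoter left 0 members separated, and leaving out brainstem culture 59 gave 5. In the K27M cultures alone, the brainstem was higher with no overlap at 6 of 9 members (Hoxa2 to Hoxa7), against 2.63% of 19052 genes, and the telencephalon was higher at 0 of 9, against 2.05%.

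The base pairs under both marks were compared within the region. Of the base pairs of the region under H3K4me3, 33.4% and 20.8% were also under H3K27me3 in brainstem controls and 56.9% and 88.0% in brainstem K27M. In the telencephalon this share was 40.5%, 100% and 100% in controls and 100% in each K27M library. The base pairs with both marks numbered 9604 and 8638 in brainstem controls and 33968 and 32658 in brainstem K27M. In the telencephalon they numbered 498, 12624 and 18696 in controls and 1079, 3373 and 3016 in K27M, so the brainstem controls lay within the range of the telencephalon controls. The 2 brainstem K27M libraries thus had more of the region under both marks than the 2 brainstem controls, which was not tested across 2 cultures.

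**Figure D3:**
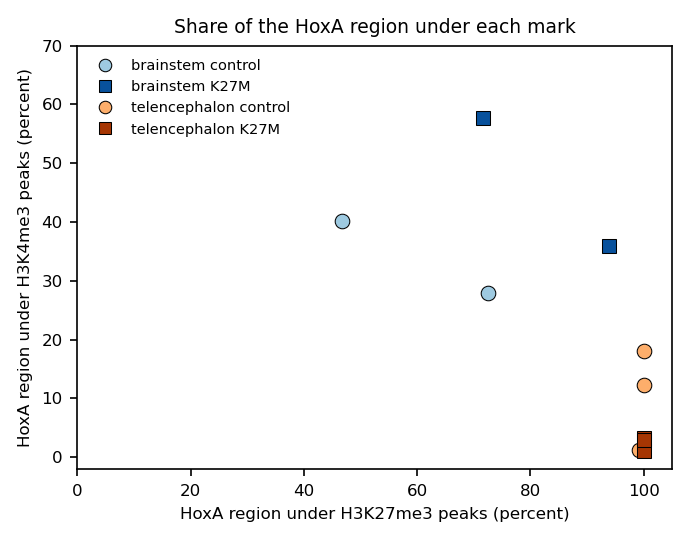
Percent of the 103.4 kb HoxA region under H3K27me3 peaks (horizontal) against the percent under H3K4me3 peaks (vertical), with 1 point per culture and genotype. The 4 brainstem points lie at 46.8% to 93.9% H3K27me3 and at 27.9% to 57.7% H3K4me3, and the 6 telencephalon points lie at 99.1% to 100% H3K27me3 and at or below 18.1% H3K4me3.

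Promoter states were called from consensus peaks found in at least 2 control cultures of a region, and a bivalent promoter had both marks. In brainstem controls, Hoxa2 and Hoxa4 had H3K4me3 only, Hoxa3, Hoxa5, Hoxa6 and Hoxa7 were bivalent, and Hoxa9, Hoxa10 and Hoxa11 had H3K27me3 only. The H3K4me3 part of the Hoxa6 call came from the 11.3 kb peak of control 61, which reached over Hoxa6 and overlapped peaks of control 59 at its neighbours, and control 59 itself had no H3K4me3 peak at Hoxa6. At Hoxa4, control 59 had an H3K27me3 peak over 73.8% of the promoter and control 61 had none, so its H3K4me3-only call held in control 61 alone. Ordered by their most upstream start sites, the members formed 3 runs. These were H3K4me3 alone at the anterior side, both marks in the middle and H3K27me3 alone at the posterior side. The runs depend on this order, which places Hoxa3 after Hoxa6. By gene number the bivalent Hoxa3 falls between Hoxa2 and Hoxa4 and breaks the anterior run. Among all genes of the annotation, the bivalent share in the brainstem was 4.6%, the share with H3K4me3 alone 26.4% and that with H3K27me3 alone 3.01%.

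In telencephalon controls, 7 of the 9 members were bivalent, against 7.31% of all genes, and Hoxa3 and Hoxa10 had H3K27me3 only. These bivalent calls rested on controls 60 and 61, since in control 59 only Hoxa7 had both marks, and requiring a peak of each mark in every control culture left 1 of the 7. In single libraries, the number of members with both marks was 4 and 4 in brainstem controls, 5 and 6 in brainstem K27M, 1, 9 and 9 in telencephalon controls and 1, 3 and 3 in telencephalon K27M.

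The effect of K27M was tested over the 5 cultures that had both genotypes, by an exact two-sided sign-flip test, which allows no p under 0.0625. H3K27me3 cover was lower in K27M in all 5 cultures at 0 of 9 members, against 10.5% of genes, and higher in all 5 at 0 of 9, against 0.134%. Hoxa9, Hoxa10 and Hoxa11 had the same full cover in K27M and control in every culture. The 6 other members differed in brainstem cultures only, with mean differences, K27M minus control, from 1.27 points at Hoxa7 to 27.1 ± 39.6 points (SD, n = 5 cultures) at Hoxa5, where the exact p was 0.5 and the adjusted p 0.78. The median over the 9 members was 5.45 points and that over all genes -9.01.

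The brainstem cultures did not move together at Hoxa3 and Hoxa4. In culture 59, H3K27me3 cover at Hoxa4 was 73.8% in control and 41.4% in K27M, and in culture 61 it was 0% in control and 100% in K27M. Across the entire region, cover changed by -0.883 points in brainstem culture 59, 47.1 in brainstem culture 61, 0.865 in telencephalon culture 59 and 0 in telencephalon cultures 60 and 61. The mean of 9.42 ± 21.1 points (SD, n = 5) was therefore set by brainstem culture 61, and without it the mean was -0.00459.

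H3K4me3 was lower in K27M in all 5 cultures at 0 of 9 members, against 0.65% of genes, and higher at 0 of 9, against 5.22%. Hoxa7 was lower in 4 of 5 cultures, by 11.5 ± 14.1 points (SD, n = 5; exact p = 0.1875, adjusted p = 0.869), and without brainstem culture 59, or with a promoter of 1000 bp upstream to 500 bp downstream, it was lower in all cultures. The region as a whole changed by 29.9 and -4.36 points in brainstem cultures 59 and 61 and by -0.146, -8.95 and -15.2 points in telencephalon cultures 59, 60 and 61. The mean of 0.253 ± 17.5 points (SD, n = 5) became -7.15 without brainstem culture 59. In telencephalon cultures 60 and 61 the median H3K4me3 fold enrichment over all peaks was also higher in controls (13.8 and 10.1) than in K27M (9.26 and 7.92), and its part in the difference was not tested.

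The fold enrichment of the long H3K27me3 peak differed between the genotypes in the same direction in every culture. Fold enrichment over input is a value that the authors' peak caller gave to each whole peak. The highest value among the peaks touching a promoter was used. H3K27me3 peaks were called broad and differed in length between libraries, so this value does not give the height at a promoter. It carries no spike-in scaling, which the study used to compare H3K27me3 between genotypes. A higher value in K27M therefore does not show that more of the mark was present. For Hoxa9, Hoxa10 and Hoxa11 the fold enrichment was 9.15 and 24.1 in control and K27M of brainstem culture 59 and 10.3 and 27.3 in brainstem culture 61. It was 5.18 and 10.996 in telencephalon culture 59, 19.6 and 27.2 in telencephalon culture 60 and 11.6 and 31.8 in telencephalon culture 61. K27M was thus higher within each of the 5 cultures, while the ranges of the genotypes overlapped across cultures.

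The log2 ratio of K27M to control at Hoxa9 was 1.40 in both brainstem cultures and 1.09, 0.48 and 1.46 in telencephalon cultures 59, 60 and 61, with a mean of 1.16 ± 0.41 (SD, n = 5), or 2.24-fold. Hoxa7, Hoxa10 and Hoxa11 gave the same values because 1 peak spans them. Hoxa3, Hoxa5 and Hoxa6 shared these values in every culture except brainstem culture 61. These members are therefore not independent measurements, and the counts over them below mostly repeat 1 peak per library. Hoxa3 and Hoxa6 had a mean of 1.29 ± 0.58 and Hoxa5 of 1.54 ± 1.05. Among the members with a peak in all 10 libraries, 7 of 7 were higher in K27M in 5 of 5 cultures, against 46.4% of 1820 genes with such peaks, and 0 of 7 were lower, against 3.68%. The exact sign-flip p was 0.0625, the smallest possible, and the adjusted p was 0.125. Hoxa2 and Hoxa4 lacked a peak in some libraries and were left out, and in brainstem culture 59 Hoxa4 had a fold enrichment of 3.73 in control and 2.39 in K27M.

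Fold enrichment moved with the library as a whole. The median log2 ratio over the 1820 genes was 0.43, and by culture it was 0.48, 0.85, 0.34, 0.03 and 0.60. H3K27me3 peaks covered 102, 49.3, 26.5, 96.2 and 152 Mb in the controls of brainstem cultures 59 and 61 and telencephalon cultures 59, 60 and 61, and 22.4, 29.8, 13.3, 41.4 and 21.4 Mb in the matched K27M cultures. Divided by its library's median at promoters, the fold enrichment was still higher in K27M in 5 of 5 cultures at 7 of 7 members, against 29.2% of genes. These 7 members again mostly share 1 peak per library. The mean log2 ratio of Hoxa9 was then 0.66. The part of the smaller peak set of K27M libraries in the difference was not tested.

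**Figure D4:**
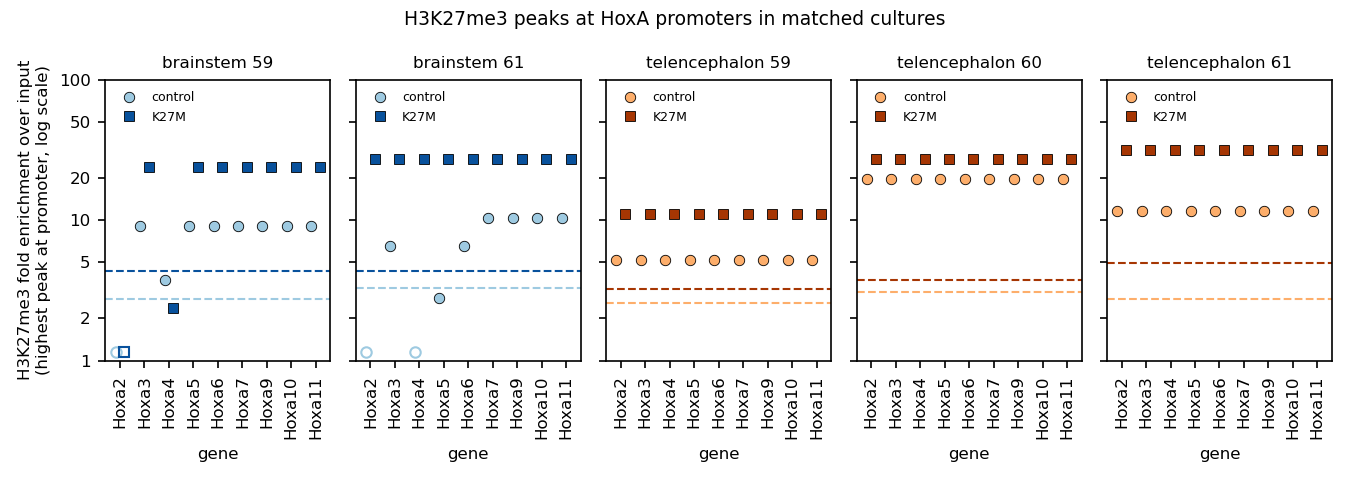
Highest fold enrichment over input among the H3K27me3 peaks touching each HoxA promoter (log axis, 1 value per peak), with 1 panel per matched culture, circles for control and squares for K27M. Dashed lines are each library's median over all promoters with a peak, and open symbols at the bottom are promoters without a peak. The squares lie above the circles at the posterior genes in all 5 cultures.

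The other 28 Hox genes lie in the B, C and D clusters. An H3K27me3 peak lay at the promoter of 28 of 28 in all 10 libraries, against 7 of 9 HoxA members, Hoxa2 and Hoxa4 being the exceptions. In H3K27me3, 0 of 28 were higher in telencephalon controls with no overlap, against 0.879% of genes, and 0 of 28 in brainstem controls, against 2.45%. In H3K4me3, 2 of 28 (Hoxb2 and Hoxb3) were higher in brainstem controls, against 15.8%, and 2 with both genotypes, against 0.755%. Bivalent in the brainstem were 6 of the 28 (Hoxb2, Hoxb3, Hoxb7, Hoxd1, Hoxd3 and Hoxd4). The other 22 carried H3K27me3 alone, and 0 carried H3K4me3 alone, the state of Hoxa2 and Hoxa4. In the telencephalon 15 of the 28 were bivalent. No test was run between the 2 sets of Hox genes.

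The PBX, MEIS and PKNOX genes encode proteins that bind DNA together with HOX proteins. All 9 had H3K4me3 at their promoters in every brainstem library, and 0 of 9 had H3K27me3 in every library. In H3K4me3, Meis1 was higher in the brainstem with no overlap among controls and with both genotypes, with mean cover of 100% in both brainstem groups and 64.6% and 71.2% in telencephalon control and K27M.

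Of 12 genes that feed into hindbrain Hox expression, among them Egr2, which encodes a transcription factor of the rhombomeres, retinoic acid receptors and the Cyp26 enzymes that break down retinoic acid, 9 had an H3K27me3 peak in every library. None was separated between regions in either mark. K27M was lower in H3K27me3 in 5 of 5 cultures at 3 of 12 (Egr2, Rara and Cyp26c1), against 10.5% of genes.

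Among 11 annotated noncoding and flanking genes of the cluster, 4 had more H3K27me3 in telencephalon controls with no overlap (Hotairm1, Hoxaas2, Hoxaas3 and Skap2), against 0.879% of genes. Hotairm1, an antisense RNA gene of the anterior end, had mean cover of 0% and 25.3% in brainstem control and K27M and 93.6% and 100% in telencephalon control and K27M. Skap2, the protein-coding gene next to the anterior end, had 0% in both brainstem groups and means of 13.1% and 10.7% in telencephalon control and K27M. In H3K4me3, 5 of the 11 were higher in brainstem controls with no overlap, against 15.8% of genes, and 4 with both genotypes, against 0.755%. Reads of antisense partners cannot be separated in ChIP-seq, so the values of Hotairm1, Hoxaas2 and Hoxaas3 also describe their HoxA neighbours.

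Likeness to a member was measured as the mean absolute difference in percent covered over all 20 libraries, among 21939 protein-coding genes outside the cluster. The genes most like Hoxa2 were Irx2 (16.6 points), Pax3 (19.8) and Hoxb2 (21.2). Hoxa3 was most like its paralogs Hoxb3 (4.21) and Hoxd3 (5.92), and Hoxa6 was most like Hoxb4 (7.88) and Hoxb5 (9.79). Hoxa4 and Hoxa5 were both most like Hlx (14.0 and 15.1), a homeobox gene of gut and liver development. Hoxa7 was closest to Msx2 (2.40). The uniformly H3K27me3-covered Hoxa9, Hoxa10 and Hoxa11 lay within 0.118, 0.106 and 0.195 points of Alx1, Sox17 and Slc6a5. The anterior members were thus further from any gene outside the cluster than the posterior ones.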

How the data were processed

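ChIP-seq peak lists of H3K27me3 (10 libraries) and H3K4me3 (10 libraries) were used, and the inputs were not used here. Per the submitters' processing notes, reads were aligned with BWA (0.7.17-r1188) to mm10 and peaks were called with MACS2 (2.2.7.1), broad for H3K27me3 (cutoff 0.1). The deposited lists give a ratio for each peak, its fold enrichment over input, with the −log10 of the p-value and q-value and an integer score, all computed by the authors' peak caller. The score was not used. The lists hold no counts of reads and no spike-in scaling, so depth is unknown here and signal under the peak threshold was not measured.

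Samples were grouped by their labels. The members, gene lists and tests were chosen with earlier results of these data known. The gene annotation was GENCODE M21 (GRCm38, the same assembly as mm10). Peaks were merged within a library, and their cover of each promoter was computed (Python 3.11.15, numpy 2.4.6, scipy 1.17.1, matplotlib 3.10.9 for figures). Tests were fitted over all genes with a promoter peak in at least 1 library and adjusted by Benjamini-Hochberg over them. They were exact two-sided permutations of region (10 splits of controls, 100 arrangements within genotype) and exact sign flips over 5 matched cultures (32 arrangements), checked on simulated data. Matching followed the culture numbers, which the labels give to both genotypes, and the study's pairing of genotypes by culture. Deviations of same-numbered libraries correlated at -0.194 to 0.469 for H3K27me3 and -0.0577 to 0.634 for H3K4me3. Consensus peaks needed 2 cultures, where a peak p-value up to 1e-08 (H3K27me3) or 1e-10 (H3K4me3) counted as stringent and up to 0.0001 or 1e-06 as weak. The fold enrichment comparison and the fit without telencephalon cultures 60 and 61 were added after the data were seen. Named genes were the 9 members, members of the lists that were separated, and the 3 genes most like each member. Alternatives were other promoter windows, peak thresholds of −log10 q 3 and fold enrichment 3, equal numbers of peaks, peak presence, each culture left out, and the replicate block.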

Additional observations from a re-analysis of the deposited data

How the results depend on the processing

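Peak lists show cover above a threshold and not the amount of a mark, with 2 or 3 cultures a group. No adjusted p passed 0.05 and calls rest on overlap. Counting a peak at the promoter in place of percent covered gave 1 member with more H3K27me3 in telencephalon controls (3 by percent covered), 0 with more H3K4me3 in brainstem controls (3) and 0 with both genotypes (3). Under it 3 differences in H3K4me3 changed sign, Hoxa6 between controls (16.7 points) and Hoxa3 and Hoxa6 between genotypes (-40 and -20 points). The narrow promoter gave 1 member, Hoxa7, with less H3K4me3 in K27M (0 with the full window). Bivalent members of the telencephalon, 7, were 4 with equal numbers of peaks and 1 when every control culture had to hold both marks.

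With each culture left out in turn, which leaves 1 brainstem library per genotype when a brainstem culture is dropped, the count of members with more H3K27me3 in telencephalon controls ranged from 3 to 6 and with both genotypes from 0 to 2, that with more H3K4me3 in brainstem controls from 3 to 5 and with both genotypes from 3 to 5, that with less H3K4me3 in K27M from 0 to 1, and that of bivalent members in the telencephalon from 1 to 7, with 1 without culture 60 or without culture 61. The change of the region in K27M ranged from -0.00459 to 11.99 points for H3K27me3 and from -7.15 to 4.11 points for H3K4me3. In the same series, H3K27me3 in K27M ranged from -5.77 (without brainstem 61) to 12.6 points at Hoxa3 and from -8.1 (brainstem 61) to 25 at Hoxa4. H3K4me3 between controls ranged from -55.9 to 11.3 (brainstem 61) at Hoxa5, from -85.4 to 14.6 (brainstem 61) at Hoxa6 and from -13.3 to 1.79 (telencephalon 59) at Hoxa7. H3K4me3 in K27M ranged from -6.35 (brainstem 59) to 12.4 at Hoxa3, from -14.0 to 1.59 at Hoxa4 (above 0 without telencephalon 60, and 0.767 without 61), from -30.3 to 6.23 (telencephalon 61) at Hoxa5 and from -11.2 (brainstem 59) to 19.8 at Hoxa6. Leaving out telencephalon cultures 60 and 61 together, added once the data had been seen, gave 5 members with more H3K4me3 in brainstem controls, a difference of the region between controls of -32.9 points (-23.6 with them), and 11.03 and 19.4 points in K27M at Hoxa4 and Hoxa5. The cause of these changes was not tested beyond the samples left out. States in the brainstem could not be called from 1 culture.

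With the replicate block over cultures 59 and 61, the region comparisons separated 3 and 0 members for H3K27me3 and 4 and 4 for H3K4me3 (controls, both genotypes), with Hoxa5 added. Exact p there were 0.25 for Hoxa2 and Hoxa4 in H3K27me3 and 0.125 for Hoxa2, Hoxa3 and Hoxa4 in H3K4me3. Without the replicate block, K27M against control called 0 members for either mark. Of the values over the comparisons under all alternatives, 121 kept their direction and size class, 15 moved and 2 changed sign. Of the values of single members, 667 kept theirs, 43 reached an exact p of 0.05 or more, 1 fell under it and 15 changed sign.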
